A study of Homo sapiens with 5 samples.

Results

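The genes of the proteasome and of its assembly were taken by symbol, as every gene whose symbol runs from PSMA to PSMG followed by a number, and 46 such genes were listed in each of the 3 deposited tables. The table that compares USP28-KO with USP28-Ctrl held 11102 genes in all, and each table for re-expressed USP28 held 12342. RefSeq names 48 genes of this form, and the remaining 2, PSMA8 of the testis and PSMB11 of the thymus, were in none of the tables. By role, the 46 comprised 7 alpha and 7 constitutive beta subunits of the core, 3 beta subunits of the immunoproteasome, 6 ATPases and 14 further subunits of the cap, 4 activator genes, the regulator PSMF1 and 4 assembly factors.

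The study asked how the deubiquitinase USP28 and its pairing into dimers act on MYC and on gene expression in HLF, a human hepatocellular carcinoma line. RNA of 5 conditions was sequenced, and the series lists 1 sample for each. USP28-Ctrl cells carried the guide sgCtrl and USP28-KO cells the guide sgUsp28. The other 3 conditions were sgUsp28 cells that carried pRRL-Ctrl (the vector control), pRRL-Usp28-WT (USP28-WT) or pRRL-Usp28-Mono (USP28-M, an allele with a disrupted dimer interface), so that their control also lacked USP28. Knockout lines were picked as single clones and the alleles were delivered by lentivirus. USP28 mRNA differed by -1.89 in USP28-KO, 5.94 in USP28-WT and 6.41 in USP28-M cells on the log2 scale, each against its control. Of 10 hepatocyte markers, 9 were absent from the USP28-KO table, ALB and HNF4A among them, while 6 of 6 mesenchymal markers were listed. Of 5 epithelial markers KRT8 and KRT18 were listed, of 5 leukocyte markers CD74, and of 3 endothelial markers none. In USP28-KO, 4 of the 6 mesenchymal markers were lower (CDH2, FN1, COL1A1 and ZEB2, the lowest FN1 at -1.92), VIM was higher at 0.57 and CD74, the class II invariant chain, at 2.99. FGB, the hepatocyte marker listed, was lower at -1.79, while KRT8 and KRT18 were higher at 0.18 and 0.46 but came out below 0 once a trend with transcript length, GC content and expression was removed. On re-expression KRT8 and KRT18 were higher, at 0.64 and 0.67 with USP28-WT and at 0.74 and 0.73 with USP28-M, as was FGB at 1.60 and 1.37. ZEB1 was lower at -1.64 and -1.77, calls not made without the trend, and VIM was lower with USP28-WT at -0.32. The part of such shifts in the values below was not tested. How many libraries stand behind each condition is not given in the sources used here, so that the p-values measure a spread that may be technical, and knockout and clone cannot be told apart. In bulk RNA, a change in every cell and a change in some of the cells cannot be told apart either.

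The proteasome degrades proteins that carry ubiquitin chains. Its core is a barrel of alpha and beta rings in which PSMB5, PSMB6 and PSMB7 cut the substrate, and its cap recognises, unfolds and feeds substrates through a ring of ATPases. Interferon induces PSMB8, PSMB9 and PSMB10, which replace the cutting subunits, and the activators PSME1 and PSME2, which open the barrel without the cap. When proteasome activity is short, the transcription factor NFE2L1 raises the transcription of subunit genes as a group.

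Members that held an interferon response element, searched as a pair of GAAA parted by 2 free bases, near their start are shown first, because they include several of the genes that moved most. Promoter windows of RefSeq (GRCh38.p14, from 250 bases before to 50 after a start) were found for 40 of the 46 genes, as 49 windows, and were searched on both strands. The element was present in 7 of the 49 windows (14.3%), in 3.57% of all 35116 RefSeq windows and in 2.92% of those of genes in the tables. Each stretch below reads 5′ to 3′ on the strand of its gene, and the capitals mark the match, which PSMB8 and PSME1 carry on the opposite strand.
PSMB8, chr6:32844002-32844091, minus strand: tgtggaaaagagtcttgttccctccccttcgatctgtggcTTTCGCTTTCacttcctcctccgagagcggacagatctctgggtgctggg
PSMB10, chr16:67936822-67936911, minus strand: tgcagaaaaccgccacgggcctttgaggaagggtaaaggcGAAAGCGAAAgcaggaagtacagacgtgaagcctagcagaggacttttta
PSME1, chr14:24136159-24136243, plus strand: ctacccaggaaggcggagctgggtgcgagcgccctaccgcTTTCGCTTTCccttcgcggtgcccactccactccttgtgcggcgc
PSME2, chr14:24146589-24146678, minus strand: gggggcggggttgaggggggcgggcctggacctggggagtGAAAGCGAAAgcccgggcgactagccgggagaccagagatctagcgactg
PSMG4, chr6:3258874-3258963, plus strand: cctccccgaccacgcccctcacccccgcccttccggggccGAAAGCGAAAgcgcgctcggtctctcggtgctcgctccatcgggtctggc
PSMB4, chr1:151399465-151399554, plus strand: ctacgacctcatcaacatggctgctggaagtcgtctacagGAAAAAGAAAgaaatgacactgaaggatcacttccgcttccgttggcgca
PSMA4, chr15:78540155-78540214, plus strand: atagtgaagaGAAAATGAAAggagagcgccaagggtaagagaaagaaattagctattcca

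PSMB8, PSMB10, PSME1, PSME2 and PSMG4 shared the same letters around a central GC, whereas PSMB4 and PSMA4 held other letters at the free positions. The match began 4 bases before the start in PSMB8, 21 in PSMB10, 28 in PSME2, 33 in PSMG4, 68 in PSMB4 and 240 in PSMA4, and 5 bases after it in PSME1. PSMB8 and PSMA4 each have further windows without a match. The core of the antioxidant response element, TGACNNNGC, through which NFE2L1 acts, was in 15 of the 49 windows (30.6%). It was in 13.3% of all windows and in 14.7% of those of the genes measured here. A match is a run of letters and was not tested for binding.

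In USP28-KO against USP28-Ctrl, 40 of the 46 proteasome genes passed an adjusted p under 0.05 (edgeR, Benjamini-Hochberg, as deposited by the authors), 34 of them higher and 6 lower. Over all genes of that comparison, 46% passed, 22.9% higher and 23.1% lower, and 53.7% of those within the expression range of the members. The log2 fold changes of the 46 ran from -0.66 for PSME4 to 1.71 for PSMG4 around a median of 0.42, beside a median of 0.00 for all genes. Long transcripts were lower and short ones higher in this comparison. Across genes, Spearman's rho of the log2 fold change with transcript length was -0.51 for 10858 genes and -0.57 for the 46, a description over genes that share their libraries. With the trend over length, GC content and expression removed, 22 of the 46 passed, 14 higher and 8 lower, against 33.1% of all genes, and the median fell to 0.073, beside -0.050 for all genes.

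**Figure D1:**
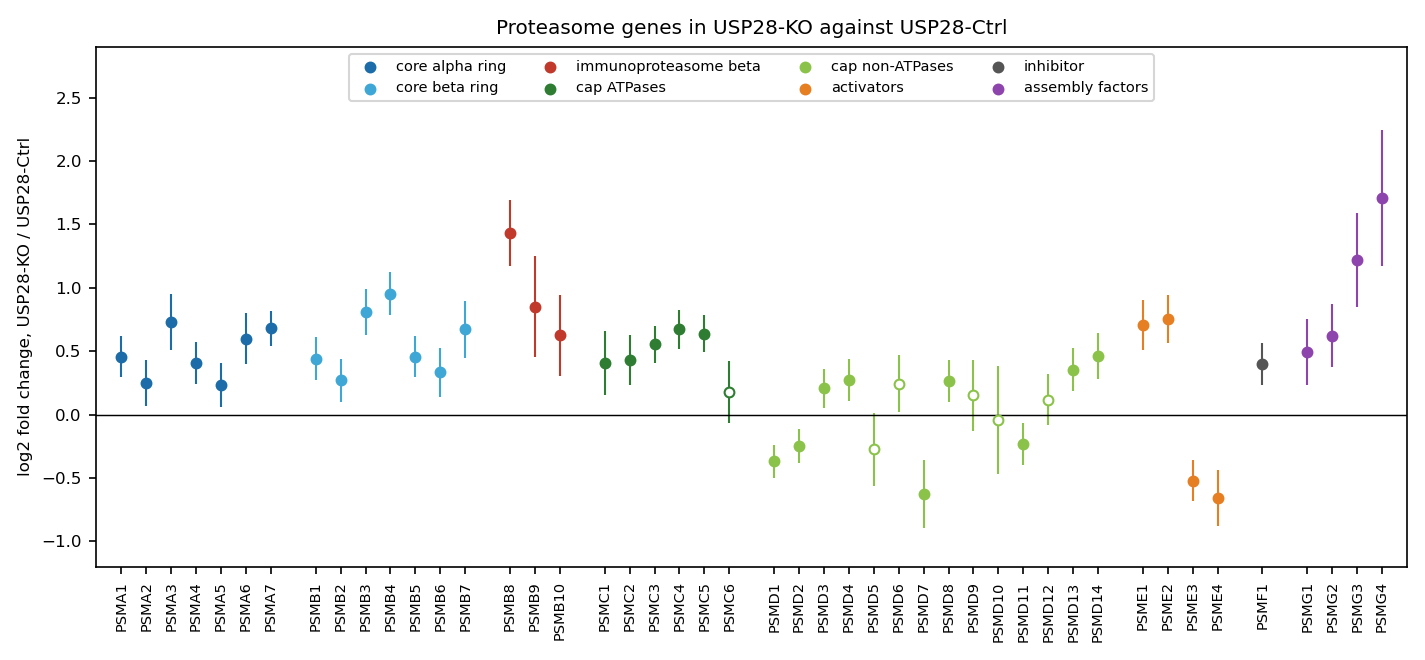
Log2 fold change of each of the 46 proteasome genes in USP28-KO against USP28-Ctrl (y axis), ordered by role along the x axis. Points are the deposited values, bars the 95% intervals worked out from the deposited p-values, filled points passed an adjusted p under 0.05 and open points did not. Every core gene lies above 0 as deposited (6 of them fell below 0 once the trend with length, GC content and expression was removed), while the cap subunits outside the ATPase ring and the activators lie on both sides.

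All 17 core genes in the tables were higher in USP28-KO as deposited, and without the trend PSMA2, PSMA7, PSMB1, PSMB5, PSMB6 and PSMB10 came out below 0. The 7 alpha genes, which form the outer rings and the gate, ranged from 0.23 (PSMA5) to 0.73 (PSMA3) in log2 fold change. PSMA3 stood at 84.2 CPM (reads scaled to the size of the library) in USP28-Ctrl and at 140 CPM in USP28-KO, a log2 fold change of 0.73 ± 0.11 (SE) with an adjusted p of 8e-10. The 7 constitutive beta genes ranged from 0.27 (PSMB2) to 0.95 (PSMB4). PSMB4, a structural beta subunit, went from 169 to 327 CPM, a log2 fold change of 0.95 ± 0.09 with an adjusted p of 4.35e-27. The cutting subunits had smaller log2 fold changes than PSMB4, a difference that was not tested, with 0.46 ± 0.08 for PSMB5, 0.33 ± 0.10 for PSMB6 and 0.67 ± 0.12 for PSMB7. Transcripts of most core genes are short, and without the trend 5 of the 14 constitutive core genes passed, against 33.1% of all genes. PSMA4, PSMA5, PSMB2 and PSMB4 were then higher, with log2 values of 0.64, 0.43, 0.44 and 0.25, and PSMB6 was lower at -0.43.

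The immunoproteasome genes had a median log2 fold change of 0.85. PSMB8 (chr6:32840717-32844703, GRCh38) stood at 47.9 CPM in USP28-Ctrl and 129 CPM in USP28-KO, a 2.70-fold difference (log2 1.44 ± 0.13, adjusted p 2.79e-25). PSMB9 went from 23.9 to 43.0 CPM (log2 0.85 ± 0.20, adjusted p 0.000141) and PSMB10 from 39.7 to 61.1 CPM (log2 0.62 ± 0.16, adjusted p 0.000576). PSMB8 held its rise without the trend, at 0.88, whereas PSMB9 came to 0.14 and PSMB10 to -0.046, neither of them called. PSMB8 and PSMB9 lie side by side on opposite strands of chromosome 6 with spans that overlap by 568 bases, and PSMB8 also overlaps an antisense RNA, PSMB8-AS1, over 425 bases of its exons. Whether the counting used strand is not given in the sources used here.

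The ATPases PSMC1 to PSMC6, the motor ring at the base of the cap, were higher in 5 of 6 cases, by log2 fold changes from 0.41 for PSMC1 to 0.67 for PSMC4, and PSMC6 was not called at 0.18 ± 0.13. Without the trend PSMC1, PSMC2 and PSMC4 remained called and PSMC3 came to -0.039. PSMC1 is uncertain, since 82.1% of its exon bases overlap NRDE2 on the other strand and RefSeq names 13 pseudogenes of it. The other cap subunits were divided. Of the 14, 5 were higher (PSMD3, PSMD4, PSMD8, PSMD13 and PSMD14), 4 were lower (PSMD1, PSMD2, PSMD7 and PSMD11) and 5 were not called, with a median of 0.13. PSMD3, PSMD4 and PSMD8 turned negative without the trend, at -0.24, -0.26 and -0.19, and PSMD3 and PSMD4 were then called lower. PSMD12, not called as deposited at 0.12, was then called higher at 0.41. Of the 14, 7 passed without the trend, 2 higher and 5 lower, against 33.1% of all genes. PSMD14, the enzyme of the lid that removes ubiquitin from substrates, went from 151 to 209 CPM (log2 0.46 ± 0.09, adjusted p 5.76e-06). PSMD7, its partner in the lid, went from 80.4 to 52.2 CPM (log2 -0.63 ± 0.14, adjusted p 2.46e-05), and 842 bases of its exons overlap a transcript on the other strand. The scaffold subunits PSMD1 and PSMD2 fell by 0.37 and 0.25 on the log2 scale. The 6 lower members of the whole family had a median transcript length of 3408 bases, against 1507 for the 34 higher ones. PSMD7 has 1670 bases and came to -0.90 without the trend.

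The activators moved in opposite directions. PSME1 and PSME2, the interferon-induced subunits of the cytoplasmic ring, were higher, and PSME3 of the nuclear ring and PSME4 of the monomeric activator were lower. PSME1 went from 111 to 182 CPM (log2 0.71 ± 0.10) and PSME2 from 132 to 222 CPM (log2 0.75 ± 0.10). PSME3 went from 286 to 199 CPM (log2 -0.52 ± 0.08) and PSME4 from 132 to 83.7 CPM (log2 -0.66 ± 0.11). The adjusted p were 1.98e-11, 9.21e-14, 3.09e-09 and 3.57e-08 in this order. PSME1 and PSME2 lie 4394 bases apart on chromosome 14. Without the trend, PSME3 stayed lower at -0.51 and PSME4 at -0.31, and PSME1 and PSME2 were not called at 0.15 and 0.11.

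The assembly factors, chaperones that build the core, were higher in 4 of 4 cases, with a median log2 fold change of 0.92. PSMG1 and PSMG2, which act as a pair, had 0.50 ± 0.13 and 0.62 ± 0.13. PSMG3 went from 25.1 to 58.4 CPM (log2 1.22 ± 0.19, adjusted p 1.62e-09) and its partner PSMG4 from 10.7 to 35.0 CPM (log2 1.71 ± 0.27, adjusted p 4.83e-09). PSMG4 had the fewest reads of the family, about 176 over all libraries of this comparison, against 3847 for PSMD2. Without the trend PSMG1, PSMG3 and PSMG4 were called, PSMG4 at 1.78, and PSMG2 was not. PSMF1, an inhibitor of the core in vitro, was higher by 0.40 ± 0.09 and remained called without the trend at 0.60. POMP, the maturation factor outside the symbol rule, was also higher, by 0.64.

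**Figure D2:**
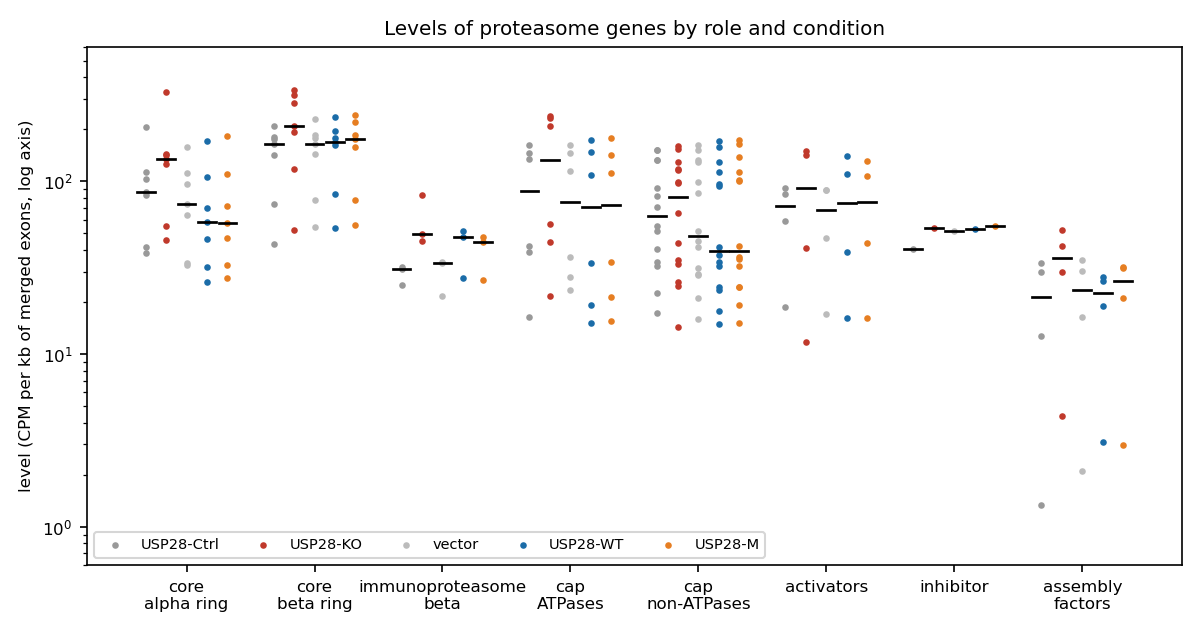
Level of each proteasome gene (y axis, CPM per kb of merged exons, log axis) by role (x axis) in the 5 conditions, each point a gene and each black bar the median of its role. USP28-Ctrl and USP28-KO come from one table and the other conditions from another, so that levels may be compared within these sets only. In USP28-KO the median level of each role lies above that of USP28-Ctrl. It is 91.6 against 71.6 CPM per kb for the activators and 81.5 against 63.0 for the cap subunits outside the ATPase ring. These are medians of levels and not of changes. Of the 4 activators 2 were called higher and 2 lower, and of those 14 cap subunits 5 higher and 4 lower. The summed levels of the 14 were 2889 CPM in USP28-Ctrl and 2885 CPM in USP28-KO.

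Levels differed more between members than between conditions. These levels were worked out from the average CPM and the fold changes with conditions weighted equally and have no error of their own. Per kb of merged exons, the median over the 46 was 65.0 CPM in USP28-Ctrl and 90.6 in USP28-KO, and 53.1, 52.3 and 51.2 in the vector, USP28-WT and USP28-M conditions of the other tables. The constitutive core spread 5.43-fold in USP28-Ctrl, from 38.7 CPM per kb for PSMA5 to 210 for PSMB1. The products stand in equal numbers in the complex, which their mRNA levels did not mirror.

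The genes for exchangeable core subunits are set side by side as levels per kb. PSME1 and PSME2 are also set against PSME3, which belongs to a separate activator ring and is not their exchange partner. PSMB8 amounted to 21.9% of its partner PSMB5 in USP28-Ctrl and 43.1% in USP28-KO. In the other tables it amounted to 23.2%, 28.99% and 28.4% in the vector, USP28-WT and USP28-M conditions. PSMB9 was at 15.1% of PSMB6 in USP28-Ctrl and 21.6% in USP28-KO, and at 20.6%, 28.9% and 25.6% in the vector, USP28-WT and USP28-M conditions. PSMB10 showed no such shift in the knockout, with 43.0% and 41.6% of PSMB7, and stood at 27.7%, 32.8% and 34.7% in the other conditions. PSME1 went from 154% to 362% of PSME3 in the knockout and from 191% in the vector control to 358% for USP28-WT and 296% for USP28-M. Their transcripts have 1136 and 3366 bases. Without the trend, PSME1 was not called in USP28-KO, at 0.15, and PSME3 was lower at -0.51. On the log2 scale, PSMB8/PSMB5 changed by 0.98 ± 0.16 (SE) in USP28-KO, 0.32 ± 0.16 with USP28-WT and 0.29 ± 0.16 with USP28-M. PSMB9/PSMB6 changed by 0.52 ± 0.23, 0.49 ± 0.22 and 0.32 ± 0.22, in this order. For PSMB10/PSMB7 the values were -0.050 ± 0.20, 0.24 ± 0.19 and 0.32 ± 0.19, and for PSME1/PSME3 1.23 ± 0.13, 0.90 ± 0.14 and 0.63 ± 0.14. PSME2 stood at 142% of PSME3 in USP28-Ctrl and 345% in USP28-KO. It stood at 191%, 283% and 244% in the vector, USP28-WT and USP28-M conditions. The log2 changes of PSME2/PSME3 were 1.28 ± 0.13, 0.57 ± 0.14 and 0.35 ± 0.14. Without the trend PSME2 was not called in USP28-KO, at 0.11. The errors take both genes of a pair as independent, and the ratios were not tested.

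**Figure D3:**
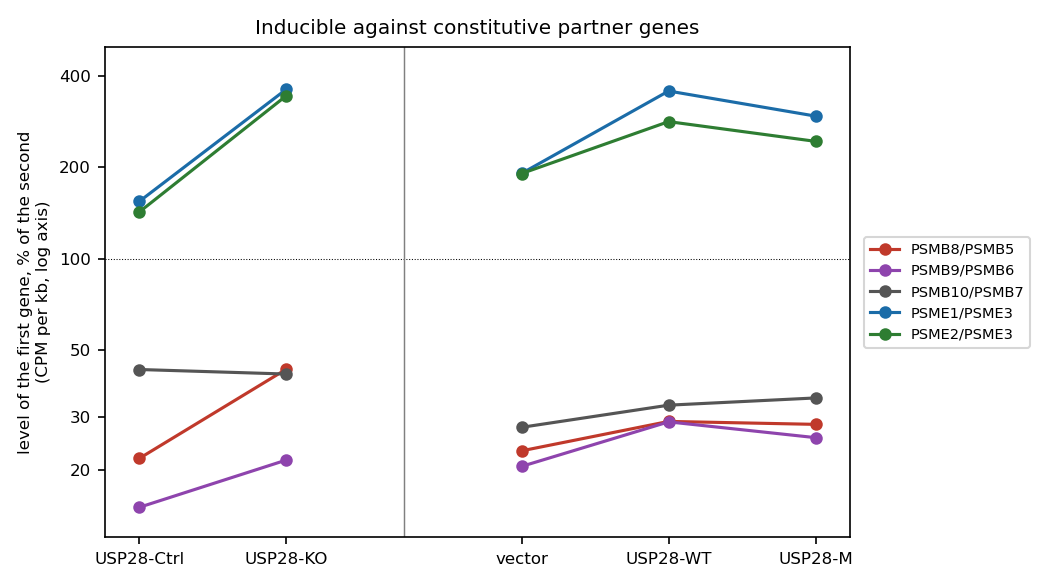
Level of an inducible gene as a percentage of a second gene (y axis, log axis, from CPM per kb) in each condition (x axis). The second gene is the constitutive exchange partner for PSMB8, PSMB9 and PSMB10. For PSME1 and PSME2 it is PSME3 of a separate activator ring. The vertical line parts the 2 sets of libraries, the dotted line marks 100%, and no error bars are drawn. Errors of the log2 changes of the ratios are given in the text. PSMB8/PSMB5 rises from 21.9% to 43.1% between USP28-Ctrl and USP28-KO while PSMB10/PSMB7 is at 43.0% and 41.6%.

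Re-expression of either allele in USP28-KO cells moved few of these genes. With USP28-WT against vector, 10 of the 46 passed (edgeR quasi-likelihood test as deposited), 4 higher and 6 lower, against 21.1% of all genes, 8.92% higher and 12.2% lower, and 26% of genes within the expression range. With USP28-M against the same vector control, 8 passed, 2 higher and 6 lower, against 21.6% of all genes, 8.17% higher and 13.4% lower, and 25.9% within the expression range. The share of members called was thus near that of all genes. The medians over the members were -0.047 and 0.00.

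PSME1 had the lowest adjusted p of the family with USP28-WT. It stood at 109 CPM in the vector control, 171 in USP28-WT and 159 in USP28-M cells, log2 fold changes of 0.65 ± 0.09 (adjusted p 0.00126) and 0.55 ± 0.09 (adjusted p 0.00237). PSMB8 stood at 51.9, 73.3 and 69.1 CPM, log2 0.50 ± 0.13 (adjusted p 0.0210) and 0.41 ± 0.13 (adjusted p 0.0425). PSMB9 and PSME2 were called with USP28-WT, at 0.60 ± 0.19 and 0.32 ± 0.09. With USP28-M their values were 0.49 and 0.27, with adjusted p of 0.0937 and 0.0546. Of these genes, PSME1 alone kept its call without the trend, at 0.60 and 0.44. PSMB10 was not called with either allele, at 0.36 and 0.32.

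The 6 lower genes were PSMC6, PSMD12, PSMD14, PSMA1, PSMA3 and PSMA2, with both alleles, and without the trend PSMA2 and PSMA3 turned above 0 with both and PSMD12 with USP28-M. PSMC6, an ATPase, stood at 61.4 CPM in the vector control, 33.2 in USP28-WT and 34.1 in USP28-M cells, log2 fold changes of -0.89 ± 0.14 and -0.85 with adjusted p of 0.00178 and 0.00176. PSMD12, a lid subunit, stood at 126, 78.4 and 85.3 CPM, log2 -0.69 ± 0.11 and -0.57. The alpha genes PSMA1, PSMA3 and PSMA2 had -0.47, -0.46 and -0.36 for the wildtype and -0.43, -0.43 and -0.36 for the monomeric allele. None of the 7 constitutive beta genes and none of the assembly factors was called with either allele. PSMG4 came to 0.56 and 0.50 with adjusted p of 0.0609 and 0.0832.

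**Figure D4:**
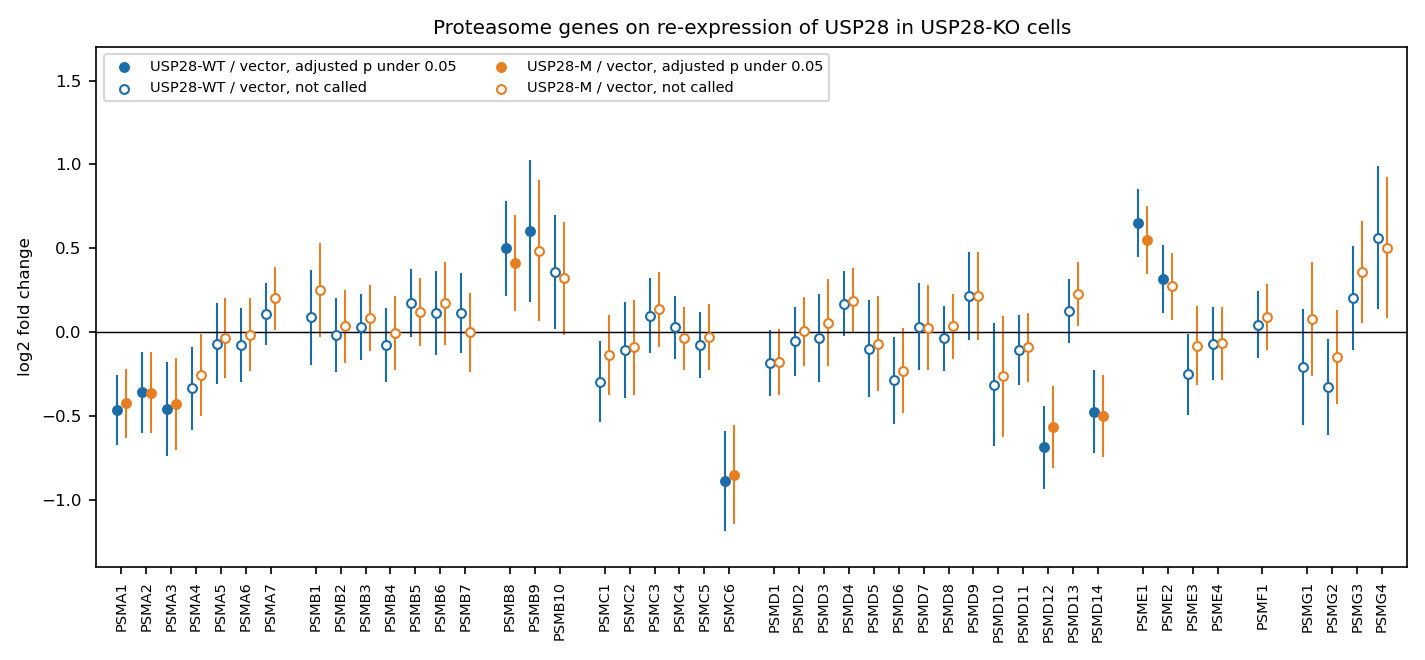
Log2 fold change of each proteasome gene (x axis, by role) for USP28-WT (blue) and USP28-M (orange), each against vector. Points are the deposited values, bars the 95% intervals worked out from F, and filled points passed an adjusted p under 0.05. PSMC6, PSMD12 and PSMD14 lie lowest and PSME1 and PSMB8 high with both alleles, which share 1 control.

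Called members parted by base composition. The 6 lower genes had transcripts of 36.8% to 46.2% GC and the 4 higher with USP28-WT 53.2% to 57.5%. Spearman's rho of the log2 fold change with GC content over the 46 was 0.71 for USP28-WT and 0.73 for the other allele, and 0.67 and 0.66 over 11940 genes. Without the trend, 2 members passed for USP28-WT (PSME1 and PSMA5, both higher) and 4 for USP28-M (PSME1, PSMA5 and PSMC2 higher, PSMA1 lower), against 5.13% and 5.94% of all genes. PSMC6 then came to -0.18 and -0.093. What part base composition has in these fold changes was not tested.

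**Figure D5:**
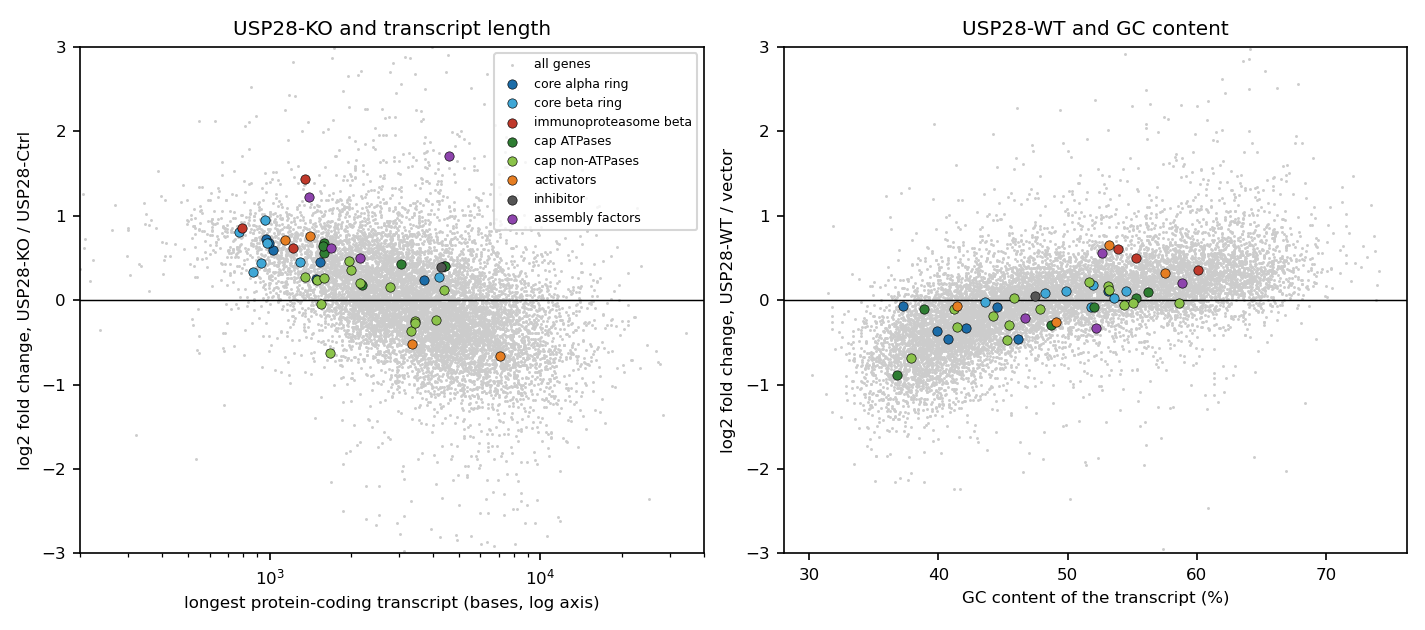
Log2 fold changes (y axes) of all genes (grey) and of the proteasome genes (coloured by role) against transcript length for USP28-KO (left, log axis) and against GC content for USP28-WT (right). The axes leave out 74 and 9 genes beyond 3 on the log2 scale. The proteasome genes follow the slope of all genes in both panels, and PSMG4 and PSMB8 at the left and PSME1 at the right lie above it.

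No difference between USP28-M and USP28-WT was detectable in a proteasome gene. Of the 46, 0 passed an adjusted p under 0.05 in the direct comparison worked out from the deposited F statistics, and 0 an unadjusted p under 0.05. Of 12341 genes, 0 passed (0%), 3.64% had an unadjusted p under 0.05, and a normal approximation called 2, neither a member. The differences USP28-M minus USP28-WT ran from -0.12 for PSMB7 to 0.28 for PSMG1, with a median of 0.038. Over all genes the median difference was -0.00062. Of the 46, 34 were above 0, a lean that was not tested and whose share over all genes was not worked out. PSMG1 differed by 0.28 with a 95% interval from -0.058 to 0.63. The lowest bound of the 46 intervals was -0.54, for PSMB9, and the highest was that of PSMG1. The interval of PSMC4, for example, ran from -0.25 to 0.12.

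The knockout table shares no library with the re-expression tables, so its calls can be set beside theirs. Of the 8 members called in both USP28-KO and USP28-WT, PSMB8, PSMB9, PSME1 and PSME2 were higher in both, and PSMA1, PSMA2, PSMA3 and PSMD14 were higher in the knockout and lower on re-expression as deposited. Over all genes, 1374 were called in both, 70.2% of them in the same direction. For USP28-M the same direction held for PSMB8 and PSME1 and the opposite for PSMA1, PSMA2, PSMA3 and PSMD14, beside 71.2% of 1400 genes in the same direction. PSMC6 and PSMD12 were called on re-expression and not in the knockout as deposited. Without the trend, none of the 8 was called both in the knockout and with either allele. PSMA5 was then called higher in USP28-KO (0.43), with USP28-WT (0.55) and with USP28-M (0.67). PSMC2 was then called higher in USP28-KO (0.49) and with USP28-M (0.49). The share of all genes called in both without the trend was not worked out.

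The 7 members with the interferon response element shown above were higher in USP28-KO in 7 of 7 cases, with a median log2 fold change of 0.75, though PSMB10 came to -0.046 without the trend. The 33 members with windows but no match had a median of 0.27, 21 higher and 6 lower. Without the trend the medians were 0.25 and 0.070. With USP28-WT 3 of the 7 were higher and none lower, with values from -0.33 for PSMA4 to 0.65 for PSME1. The 15 members with TGACNNNGC and the 25 without had medians of 0.50 and 0.40 in USP28-KO. The gamma-activated site TTCNNNGAA was in 14.3% of the proteasome windows and 7.66% of all windows, and its 7 members had a median of 0.25 in USP28-KO, 5 higher and 2 lower, against 0.41 for the 33 without, or -0.058 and 0.11 without the trend. The E-box CACGTG, the letters that MYC binds, was in 6.12% and 7.26% of windows, and its 3 members had a median of 0.15, 1 higher and 1 lower, against 0.41 for the other 37. The CCAAT box was in 38.8% and 34.6% of windows and the ETS letters CCGGAAG in 28.6% and 10.3%, with medians of 0.41 and 0.31 for the members that held them. Among windows of the genes measured here, the shares were 6.20% for TTCNNNGAA, 9.46% for CACGTG, 35.4% for CCAAT and 17.8% for CCGGAAG. None of these shares and medians was tested. The interferon response element was put first because its members include several of the genes that moved most. Its contrast with the other members therefore rests on the same values as that choice.

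Of 9 partners of the immunoproteasome in antigen presentation and interferon signalling, 4 were higher in USP28-KO and 1 lower, a share near the 53.7% of genes within the expression range of the members. IRF1 and IRF9, transcription factors of the interferon response, had log2 fold changes of 1.15 ± 0.19 and 1.19 ± 0.13, and the peptide transport genes TAP2 and TAPBP 0.26 and 0.33, while JAK1 was lower at -0.44 and not called without the trend. TAP1, next to PSMB9 in the genome, was not called at 0.29 ± 0.14, nor was STAT2 at 0.11. On re-expression none of the 9 was higher, and JAK2 was lower with USP28-WT at -0.89 and with USP28-M at -1.54. Neither of these JAK2 calls was made without the trend.

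Of the 8 genes around NFE2L1, 4 were lower in USP28-KO and 3 higher. NFE2L1 itself had -0.55 ± 0.07, the protease DDI2 that releases it -1.75 ± 0.44, the deglycosylating enzyme NGLY1 -0.43 ± 0.19 and the related factor NFE2L2 -0.31 ± 0.12. Their small MAF partners MAFG, MAFK and MAFF were higher, at 0.39, 0.29 and 0.92. The share called is set beside 46% of all genes, 22.9% higher and 23.1% lower. Without the trend MAFK was not called, at 0.058, and the other 6 kept their calls, against 33.1% of all genes called. On re-expression NFE2L2 was lower with both alleles, at -0.93 and -1.0, with and without the trend. MAFK was higher at 0.57 and 0.44, and was not called without the trend with either allele.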

How the data were processed

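RNA sequencing of HLF cells covered 5 conditions. Per the labels, the authors' processing notes name bcl2fastq 2.20, STAR 2.5.4, edgeR 3.26.8 and the build hg19, while the counting, the filter and the strand setting are not given in the sources used here. The authors deposited 3 comparison tables that list, per gene, the log2 fold change, the mean log2 CPM, the p-value and the Benjamini-Hochberg adjusted p-value. In the tables of the re-expressed alleles the authors also deposited F, the statistic of the edgeR test, which is a score with no fixed range and was used here only to work out standard errors. Calls are the authors' adjusted p under 0.05, because no counts per library were used here.

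Standard errors were worked out from p by a normal approximation for USP28-KO (above a p of 0.9, the median of genes of like expression) and from F with 11.3 denominator degrees of freedom for the others. The direct comparison divided the difference of fold changes by its standard error, with 0.5 of the variance assigned to the control. The trend was an additive fit over 20 bins each of GC content, transcript length and expression, which 97.8% and 96.7% of genes had (GENCODE 29, GRCh38). Both steps were run on simulated data built with the same settings, a control part of 0.5 and an additive trend. Such data cannot show whether these settings hold for the real libraries, which was not tested. CPM per condition came from the average and the fold changes with conditions weighted equally.

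The depth of single libraries is unknown. From the spacing of the lowest averages, about 7700000 reads stand behind the USP28-KO table and 30500000 behind the others, over all libraries. Members held 176 to 3847 reads in the former and 667 to 17484 in the latter. The number of reads limits the precision. For 21 members RefSeq names pseudogenes, which could share reads.

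Named genes were the family, the largest rise and fall per role and comparison, the cutting subunits with their exchange partners, the activators, PSMF1, the assembly factors, USP28 and the genes of the fixed lists. Some list genes are counted but not reported here by name. Members and lists were chosen with earlier results of these data known. Scripts ran under Python 3.11.15 with scipy 1.17.1, pandas 2.3.3, numpy 2.4.6 and, for plots, matplotlib 3.10.9.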

Additional observations from a re-analysis of the deposited data

How the results depend on the processing

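The counts of called members depended on the threshold and on the trend. In USP28-KO 40 became 36 at an adjusted p of 0.01, 20 when a log2 difference of 0.5 in size was also required, 25 with Holm's adjustment and 22 without the trend. With USP28-WT 10 became 4, 4, 0 and 2, and with USP28-M 8 became 5, 4, 0 and 4, in this order. An average log2 CPM of at least 5 gave 39, 11 and 9. Without the trend the median was 0.073 in USP28-KO and 0.059 with USP28-WT. The median with USP28-M, near 0, turned to -0.0016 as a mean, -0.0041 at the CPM minimum and -0.027 when centred on all genes. Signs turned without the trend in USP28-KO for PSMD3 (-0.24), PSMA2 (-0.035), PSMD8 (-0.19), PSMD4 (-0.26), PSMB6 (-0.43), PSMB1 (-0.18), PSMB5 (-0.058), PSMC3 (-0.039), PSMB10 (-0.046) and PSMA7 (-0.11), with USP28-WT for PSMA3 (0.060) and PSMA2 (0.13), and with USP28-M for PSMD12 (0.12), PSMA3 (0.092) and PSMA2 (0.13). The cause was not tested. In USP28-KO 18 of 40 called members kept direction and call without the trend. Per kb of the longest transcript, the median levels were 80.6, 101, 63.1, 58.9 and 59.8 CPM in the order USP28-Ctrl, USP28-KO, vector, USP28-WT and USP28-M. USP28-M minus USP28-WT gave 0 called members under each alternative, with PSMG1 at an unadjusted p under 0.05 when the control part was 0.67. No replicate could be left out, and no paired analysis was possible because the tables hold no columns of single libraries.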

Other observations

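The genes that supply and carry ubiquitin to the proteasome also moved in both directions in USP28-KO, where 7 of 14 were higher and 6 lower, beside 46% of all genes called and 53.7% of those within the expression range of the proteasome genes. With the trend over length, GC content and expression removed, 4 were higher and 4 lower, against 33.1% of all genes called. UBB, which encodes a chain of ubiquitin units, and RPS27A, which encodes ubiquitin fused to a ribosomal protein, were higher with log2 fold changes of 0.57 and 0.54, and neither was called without the trend, at -0.0018 and 0.096. UBA1, the main activating enzyme, was lower at -0.35 in USP28-KO and higher with USP28-WT at 0.32 and with USP28-M at 0.30, and only the knockout call was made without the trend. The shuttle factors UBQLN1, UBQLN2 and UBQLN4 were lower at -0.71, -0.31 and -0.63, as was RAD23B at -0.20, and the calls of UBQLN2 and RAD23B were not made without the trend, where RAD23B came to 0.0074. Of the partners of the segregase VCP, which itself was not called at -0.12, UFD1 and NSFL1C were higher at 0.77 and 0.92 and NPLOC4 was lower at -0.46.

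Among 12 proteasome subunits and partners outside the symbol rule, 5 were higher and 2 lower in USP28-KO, a share near the 53.7% of genes within the expression range. Without the trend 4 were higher and 2 lower, against 33.1% of all genes called. SEM1 and ADRM1, subunits of the cap, had 0.68 and 0.60, POMP 0.64, TXNL1 0.52 and the stress-induced adaptor ZFAND2A 1.28, of which ADRM1 (-0.071) and ZFAND2A were not called without the trend. ECPAS, a proteasome adaptor, was lower at -0.65 and UBE3C, a ligase bound to the proteasome, at -1.05. With USP28-WT, POMP and UCHL5, a deubiquitinase of the cap, were lower at -0.63 and -0.72, and with USP28-M at -0.50 and -0.91. Neither was called with either allele without the trend. The transcripts of both are poor in GC, at 34.6% and 35.2%. Without the trend 3 of the 12 were higher with each allele, against 5.13% of all genes called for USP28-WT and 5.94% for USP28-M. They were TXNL1, ECPAS and ZFAND5 for USP28-WT and USP14, TXNL1 and ZFAND5 for the other allele.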
